A study of Mus musculus with 25 samples.

Results

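Border macrophages are the tissue-resident macrophages of the meninges and the perivascular space, and 8 genes that are widely used to mark them were followed here across myeloid cells sorted from the injured mouse spinal cord: Mrc1, Cd163, Lyve1, Pf4, Ms4a7, Folr2, Cbr2 and Stab1. The genes were chosen by name, as rows of the deposited gene count matrices, and all 8 were found among the 22439 genes of the matrices.

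Border macrophages and microglia both settle early in development and renew themselves in place, but microglia lie within the nerve tissue while border macrophages line its vessels and coverings, where they take up proteins, lipids and debris. Many of the 8 genes encode uptake receptors. Mrc1 is the mannose receptor (CD206), Cd163 binds haemoglobin complexed with haptoglobin, Lyve1 binds hyaluronan, Stab1 is the scavenger receptor stabilin-1, and Folr2 is folate receptor beta. Pf4 is a chemokine (CXCL4) that is also stored in platelet granules, Ms4a7 is a membrane-spanning protein of the MS4A family, and Cbr2 is a carbonyl reductase. None of them is confined to border macrophages: macrophages that enter injured tissue from the blood can express several, and Lyve1 and Stab1 are also known from endothelium.

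The data are droplet-based 3′ single-cell RNA-seq (10x Genomics) of 30958 myeloid cells in 25 libraries, from a 5 mm lesion segment with myelin removed on a Percoll gradient. Per the labels, 12 libraries came from Cx3cr1CreERT2 mice, in which Cx3cr1-expressing cells carry a drug-inducible Cre, and were sorted for YFP+ cells; they are called mixed. The other 13 came from Cx3cr1CreERT2:R26tdTomato mice, which add a red reporter that Cre switches on: 5 were sorted as RFP+/YFP+ (resident) and 7 as RFP-/YFP+ (infiltrating). The last, D3_conflict 1, has a title that says infiltrating and a sort label that says RFP+/YFP+, and was kept out of the tests between times and sorts. It is in the values by cell type and by cluster, in the counts of cells with many markers and in the likeness of patterns. All groups carry the Cre allele, so none is a wild-type reference, and the sort selects Cx3cr1-expressing cells, so border macrophages low in Cx3cr1 could be missed. Ages and the schedule of Cre induction are not given in the sources used here.

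Libraries were taken 1, 2, 3, 10 or 21 days after spinal cord injury (D1, D2, D3, D10, D21) or after laminectomy, the opening of the bone without injury (Ctrl). Libraries are named by time, sort and replicate: 2 are Ctrl (Ctrl_mixed 1 and Ctrl_resident 1), 5 are of D1, 4 of D2, 7 of D3, 5 of D10 and 2 of D21. Each library pooled 1 to 3 mice, so the library is the replicate, and p-values measure the spread between libraries. Library totals ran from 486649 to 33204422 UMIs (unique molecular identifiers, counted molecules), with 155 to 3800 cells each and a median of 1577 to 11233 UMIs per cell. Across libraries, 127 cell barcodes occurred more than once (254 cells), 13 of them within 1 of the 7 sequencing pools. The deposited codes for cell types were given names by their markers: 13289 microglia (9 of 9 microglia markers high), 12841 macrophages (8 of 9 macrophage and 4 of 8 monocyte markers, so monocytes are included), 2712 dendritic-like cells (6 of 9 markers) and 2116 neutrophil-like cells (8 of 8). No deposited code was named as border macrophages. Levels below are CPM, UMIs of a gene normalised to the total UMIs of the summed cells of 1 type; 3′ counts do not depend on transcript length in a simple way, so levels were compared between samples rather than between genes.

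On GRCm38, per GENCODE M21, Mrc1 lies on chromosome 2 (14229392 to 14332057, plus strand), Pf4 on 5 (90772435 to 90773383, plus), Cd163 on 6 (124304656 to 124330527, plus), Folr2 on 7 (101839988 to 101857194, minus), Lyve1 on 7 (110850607 to 110863239, minus), Cbr2 on 11 (120729489 to 120732114, minus), Stab1 on 14 (31139013 to 31168641, minus) and Ms4a7 on 19 (11321039 to 11336146, minus). RefSeq promoters (GRCm38.p6), counted from RefSeq's own starts, were found for 7 of the 8 genes. RefSeq has 2 promoters for Folr2 and 2 for Ms4a7, and the first of each is printed. The 250 bases before the start are shown for 4 of the members with called changes below, because these genes moved together in part: Ms4a7, Folr2 and Pf4 rose in microglia, and Pf4 and Mrc1 fell in macrophages. Capitals mark matches, on either strand, to GAGGAA (the core bound by PU.1, the macrophage lineage factor) or TGCTGA (the half-site of MAF factors). The AP-1 letters TGACTCA and the core-promoter letters TATAAA were searched too and did not occur in these 4 sequences; no matches overlapped.
Pf4, chr5:90772185-90772434, plus strand: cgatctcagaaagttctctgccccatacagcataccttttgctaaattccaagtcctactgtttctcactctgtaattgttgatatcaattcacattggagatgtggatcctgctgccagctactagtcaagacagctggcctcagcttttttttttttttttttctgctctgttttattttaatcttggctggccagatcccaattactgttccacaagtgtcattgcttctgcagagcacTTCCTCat
Mrc1, chr2:14229164-14229413, plus strand: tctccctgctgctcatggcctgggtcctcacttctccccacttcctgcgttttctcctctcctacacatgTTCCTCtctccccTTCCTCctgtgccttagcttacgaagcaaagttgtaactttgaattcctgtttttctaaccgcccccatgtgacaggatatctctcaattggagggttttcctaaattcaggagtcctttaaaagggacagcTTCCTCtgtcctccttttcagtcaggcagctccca
Ms4a7, chr19:11336147-11336396, minus strand: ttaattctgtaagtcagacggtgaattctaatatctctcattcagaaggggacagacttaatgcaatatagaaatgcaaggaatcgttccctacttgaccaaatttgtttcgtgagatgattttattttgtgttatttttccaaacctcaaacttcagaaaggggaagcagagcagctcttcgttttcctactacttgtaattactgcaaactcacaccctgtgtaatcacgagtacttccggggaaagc
Folr2, chr7:101857191-101857440, minus strand: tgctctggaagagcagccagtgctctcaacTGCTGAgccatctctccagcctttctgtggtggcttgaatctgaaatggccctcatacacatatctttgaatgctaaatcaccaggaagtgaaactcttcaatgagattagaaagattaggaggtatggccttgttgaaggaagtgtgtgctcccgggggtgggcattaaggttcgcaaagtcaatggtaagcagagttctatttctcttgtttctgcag
GAGGAA was on the minus strand of the Pf4 promoter, 8 to 3 bases before the start, and at 3 places on that strand of the Mrc1 promoter, 180 to 175, 167 to 162 and 35 to 30 bases before it. TGCTGA was on the plus strand of the Folr2 promoter, 220 to 215 bases before the start, and none of the 4 motifs was in that of Ms4a7. The second Folr2 promoter, not printed, held TGCTGA 19 to 14 and TGACTCA 74 to 68 bases before its start, both on the plus strand, and the second of Ms4a7 held none. The Cbr2 promoter, also not printed, held GAGGAA 79 to 74 bases before the start on its plus strand. That of Stab1 held GAGGAA 30 to 25 and TGCTGA 43 to 38 bases before the start, both on its plus strand. That of Cd163 held none of the motifs. Of the 32851 promoters in the table, 23.3% held GAGGAA, 16.1% TGCTGA, 4.46% TGACTCA and 12.4% TATAAA in the same window, so a match here is a description of the letters and not a binding site.

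The 8 genes did not share 1 pattern over the cell types. Ms4a7 and Mrc1 were higher in macrophages than in microglia, Pf4 was high in macrophages of the early libraries only, Folr2 was higher in microglia, Stab1 was present in both, and Cd163, Lyve1 and Cbr2 were rare. Over all macrophages Ms4a7 was at 492.0 CPM pooled, and at 641.4 ± 463.2 CPM (SD, n = 20) over the libraries with at least 20 of them, against 36.3 CPM pooled and 98.1 ± 199.99 CPM (n = 19) in microglia. Mrc1 was at 19.9 CPM pooled in macrophages (28.7 ± 36.7, n = 20) and 2.30 in microglia (3.26 ± 5.32, n = 19; 2.15 ± 2.19, n = 18, without D21_infiltrating 1, where 3 UMIs in 41 cells gave 23.4 CPM). Pf4 was at 590.4 and 56.4 CPM pooled in the same order, Stab1 at 172.2 and 109.8, and Cbr2 at 7.83 and 3.31. Folr2 went the other way, with 8.04 CPM in macrophages and 18.7 in microglia. Cd163 was at 1.37 and 0.291 CPM and Lyve1 at 0.388 and 0.504 CPM: in all 30958 cells there were 223 UMIs of Cd163 in 133 cells and 91 of Lyve1 in 39 cells.

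Dendritic-like and neutrophil-like cells are given for comparison, and free RNA itself was not measured. Without D3_conflict 1 the pooled macrophage levels were 518.8 CPM for Ms4a7, 23.4 for Mrc1 and 706.2 for Pf4. Most of the 2116 neutrophil-like cells came from libraries with few microglia: 897 from D3_conflict 1, 702 and 188 from D1_infiltrating 2 and 1, and 223 from D2_infiltrating 1. In neutrophil-like cells Pf4 was at 28.2 CPM, Ms4a7 at 20.1, Stab1 at 31.1 and Folr2 at 0.623, and in dendritic-like cells these were at 6.80, 41.4, 33.5 and 0.417 CPM. Mrc1 was at 8.28 CPM in dendritic-like cells, and it was lower in macrophages than in these in 2 of 10 libraries with enough of both, as Cd163 was in 5 of 10. With each cell thinned to 2000 UMIs, Ms4a7 was found in 43.7% of macrophages (exact 95% interval 42.9 to 44.6), 4.13% of microglia (3.75 to 4.54) and 3.75% of neutrophil-like cells (2.79 to 4.93). Pf4 was found in 16.4% (15.8 to 17.1), 4.80% (4.38 to 5.24) and 4.21% (3.19 to 5.44) of the same cells. Pooled over all times, the intervals of microglia and neutrophil-like cells overlapped for Ms4a7 and Pf4, but the pooled microglial share mixes Ctrl with injured libraries. Without D3_conflict 1 the neutrophil-like shares were 1.55% for Ms4a7 (0.778 to 2.76), whose interval lies below that of microglia, and 6.497% for Pf4 (4.80 to 8.57), which overlaps it. By library, thinned Ms4a7 was in 0% of microglia in both Ctrl libraries and in 14.4%, 8.46% and 5.79% in D10_resident 1, D10_mixed 1 and D10_mixed 2. Pf4 was in 0.143% and 0.444% of them in Ctrl and in 14.6% in D10_resident 1. The highest shares were in D21_infiltrating 1, where 13 of 28 microglia had Ms4a7 (46.4%) and 5 had Pf4 (17.9%). Folr2 was found in 3.07% of microglia (2.74 to 3.43), 1.55% of macrophages (1.34 to 1.79) and 0.0765% of neutrophil-like cells (0.00194 to 0.426), so its share in microglia was above that in neutrophil-like cells. Stab1 was found in 17.0%, 27.2% and 5.13% and Mrc1 in 0.283%, 2.60% and 0.306% of these 3 types. Thinning left out 3409 microglia, 553 macrophages, 61 dendritic-like and 809 neutrophil-like cells; the median depths were 3062 UMIs in microglia, 9144 UMIs in macrophages, 11361 UMIs in dendritic-like and 2154 in neutrophil-like cells. Unthinned, Ms4a7 was found in 63.7% of macrophages, 6.10% of microglia and 4.02% of neutrophil-like cells, and Pf4 in 25.2%, 8.11% and 5.58%. All intervals cover counting error only.

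**Figure D1:**
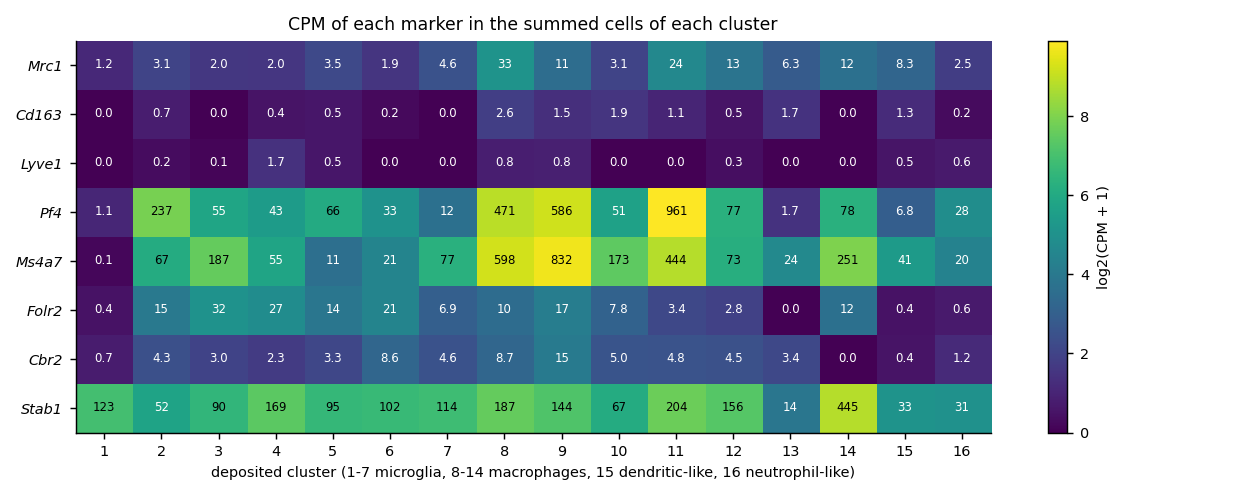
Levels of the 8 markers (rows) in the summed cells of the 16 deposited clusters (columns), with the CPM printed in each cell and the colour on a log2(CPM + 1) scale. Ms4a7 peaks at 832 CPM in cluster 9, Pf4 at 961 in cluster 11 and Stab1 at 445 in cluster 14, and Folr2 peaks at 32.0 in cluster 3, which holds microglia.

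No deposited cluster had all 8 markers at their highest level. Ms4a7 was highest in cluster 9 (831.8 CPM, with a UMI in 89.8% of its 3554 cells), ahead of cluster 8 (598.4) and cluster 11 (444.0). Cbr2 was also highest in cluster 9 (15.4 CPM), and Mrc1 and Cd163 in cluster 8 (33.2 and 2.58 CPM). Pf4 was highest in cluster 11 (961.3 CPM), although only 25.3% of its 4504 cells held a UMI of it, and then in clusters 9 (585.6) and 8 (470.8). Stab1 was highest in cluster 14 (445.0 CPM), a cluster of 118 shallow cells with a median of 1488 UMIs. Folr2 was highest in the microglial clusters 3 (32.0 CPM), 4 (27.3) and 6 (21.0), with macrophage cluster 9 next (17.5). Lyve1 was also highest in a microglial cluster, 4, at 1.68 CPM, and all 16 UMIs of it there came from 1 cell. These levels are a description of clusters that were built on gene expression and carry no test. The ranks also mix libraries: within cluster 9 the Mrc1 level of single libraries ran from 2.41 to 516.9 CPM with a median of 9.86.

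In 14 libraries both microglia and macrophages numbered at least 20, so that the types could be compared inside a library. Ms4a7 and Mrc1 were higher in macrophages in 14 of 14. Cd163 was higher in macrophages in 11, with none of it in either type in the other 3. Pf4 was higher in macrophages in 9, Cbr2 in 9 and Stab1 in 8 of 14, and Folr2 in 4 of 14, with 9 the other way and 1 at 0 in both. At D10 the order of Pf4, Folr2 and Ms4a7 differed within the same libraries. In D10_resident 1, microglia and macrophages had 118.9 and 24.1 CPM of Pf4, 55.0 and 10.2 of Folr2, and 141.9 and 1805 of Ms4a7. In D10_mixed 1 the pairs were 68.4 and 26.03 for Pf4, 30.2 and 11.4 for Folr2, and 68.8 and 423.0 for Ms4a7. In D10_mixed 2 they were 29.4 and 16.6, 27.1 and 3.33, and 51.1 and 302.8. In these 3 libraries Pf4 and Folr2 were higher in microglia while Ms4a7 was 5.92 to 12.7 times as high in macrophages. In D10_infiltrating 2 the pairs were 107.0 and 38.0, 23.8 and 4.96, and 642.0 and 1075, so Ms4a7 was only 1.67 times as high in macrophages. Its 36 microglia held 9 UMIs of Pf4 and 2 of Folr2. The counts of the 3 genes thus did not keep 1 ratio across the types.

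**Figure D2:**
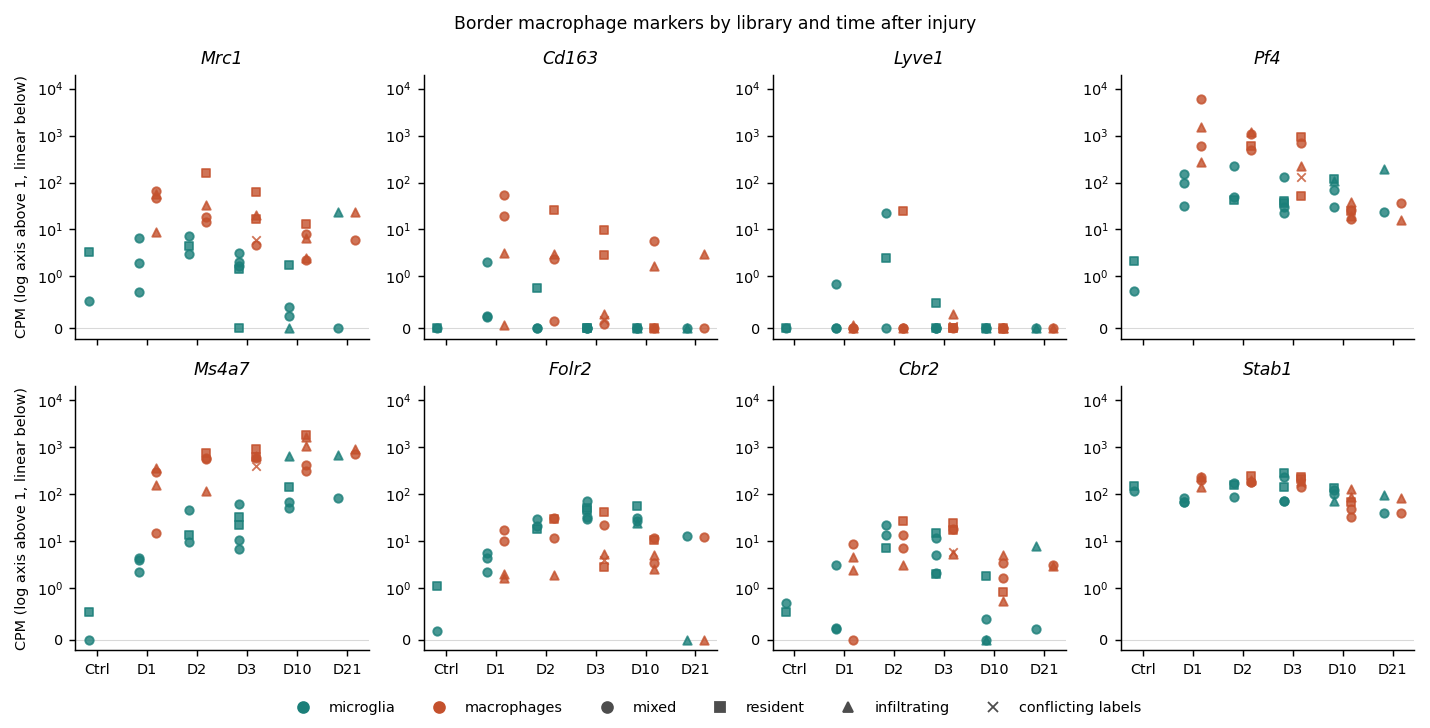
Level of each marker in every library with at least 20 cells of a type, by time after injury, for microglia (green) and macrophages (red), with the sort as the symbol; the axis is logarithmic above 1 CPM and linear below. Microglial Ms4a7 climbs from 0 and 0.539 CPM in the Ctrl libraries to 51.1 to 141.9 CPM in the mixed and resident libraries at D10, while macrophage Pf4 drops from 269.9 to 5914 CPM at D1 to 16.6 to 38.0 at D10.

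In microglia of the resident and mixed libraries, Ms4a7, Folr2 and Pf4 were called higher than in Ctrl at every time after injury, Ms4a7 and Folr2 rose further from D1 to D3, and Cbr2 was called higher than in Ctrl at D2 and D3. Filtering of low counts left 7 of the 8 markers in the test, all but Cd163. Ms4a7 was at 0 and 0.539 CPM in Ctrl_mixed 1 and Ctrl_resident 1. It was at 2.19, 4.27 and 3.95 CPM in D1_mixed 1 to 3, and at 13.2, 9.53 and 44.4 in D2_resident 1, D2_mixed 1 and D2_mixed 2. At D3 it was at 21.8 and 31.8 in D3_resident 1 and 2 and at 10.3, 6.75 and 61.0 in D3_mixed 1 to 3. At D10 it reached 141.9 in D10_resident 1, 68.8 in D10_mixed 1 and 51.1 in D10_mixed 2, and the only D21 library, D21_mixed 1, had 80.3. Every injured library was above both controls, and every D3 library above every D1 library, while D10 and D3 overlapped. By edgeR's quasi-likelihood test with Benjamini-Hochberg adjustment over 10801 genes, Ms4a7 was higher than in Ctrl by 4.98 ± 1.38 (log2, SE) at D1 (adjusted p = 0.00717), by 6.60 ± 1.25 at D2 (0.00115), by 7.89 ± 1.16 at D3 (0.000106), by 9.38 ± 1.14 at D10 (5.51e-05) and by 9.48 ± 1.24 at D21 (0.000104). Ctrl held 1 UMI of Ms4a7 in all, so the size of these fitted changes depends on that UMI: the ratio of D10 to Ctrl counts was 570.9, with an exact 95% counting interval of 102.2 to 22576. The D3 to D1 change, which does not use Ctrl, was 2.91 ± 0.60 (adjusted p = 0.00330), and the D10 to D3 change, 1.49 ± 0.50, missed the threshold (0.0775).

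Folr2 was at 0.179 and 1.08 CPM in Ctrl_mixed 1 and Ctrl_resident 1, and at 2.19, 4.27 and 5.57 in D1_mixed 1 to 3. At D2 it was at 17.6, 21.1 and 29.6 in D2_resident 1, D2_mixed 1 and D2_mixed 2. At D3 it was at 49.6 and 45.3 in the resident and 33.0, 28.7 and 71.0 in the mixed libraries. It was at 55.0, 30.2 and 27.1 in D10_resident 1, D10_mixed 1 and D10_mixed 2, and at 12.6 in D21_mixed 1. The D3 libraries lay above all D1 libraries and overlapped those of D10. Against Ctrl, with 3 UMIs, edgeR gave 4.03 ± 0.78 at D1 (adjusted p = 0.000543), 5.87 ± 0.71 at D2 (3.39e-05), 7.36 ± 0.68 at D3 (2.77e-06), 6.93 ± 0.68 at D10 (5.28e-06), and for the D21 library 5.48 ± 0.79 (0.000276). From D1 to D3 it rose by 3.33 ± 0.40 (5.89e-05), and from D3 to D10 the change of -0.43 ± 0.34 did not pass (0.435).

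Pf4 was at 0.715 and 2.16 CPM in the Ctrl libraries and at 32.2, 97.5 and 149.0 in D1_mixed 1 to 3. At D2 it was at 42.3, 48.6 and 222.1 in D2_resident 1, D2_mixed 1 and D2_mixed 2, and at D3 at 35.7, 40.4, 22.7, 30.4 and 132.0 in D3_resident 1 and 2 and D3_mixed 1 to 3. D10 gave 118.9, 68.4 and 29.4, and D21 gave 23.9. Every injured library lay above the controls, and the injured times overlapped one another. The changes against Ctrl (8 UMIs) were 6.96 ± 1.18 at D1 (adjusted p = 0.000189), 6.32 ± 1.17 at D2 (0.000963), 6.05 ± 1.13 at D3 (0.000700), 6.46 ± 1.14 at D10 (0.00139), and for the D21 library 5.20 ± 1.29 (0.0175). At D1 few cells carried the counts: 5 microglia held 70.1% of the Pf4 UMIs of D1_mixed 1, 68.4% of those of D1_mixed 2 and 37.5% of those of D1_mixed 3, the last with up to 84 UMIs in 1 cell. At D2 the top 5 held 46.7%, 53.6% and 100%, the last from 30 UMIs in 23 microglia. Over D1 microglia of all sorts, 220 cells had Pf4. The microglial gene P2ry12 was in 13.2% of them and in 24.9% of the 3102 without. Per UMI they had more of the macrophage genes F13a1 (61.7 against 4.89 CPM) and Arg1 (614.2 against 53.7). The part of macrophages coded as microglia was not tested. The 9 platelet markers summed to 64.2 and 70.4 CPM in the Ctrl libraries and to 0 to 20.3 in the injured ones of these sorts, and Ppbp was at 0 to 0.770 CPM. The sum was thus highest in Ctrl, where Pf4 was lowest. The part of platelets in the Pf4 change was not tested.

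Cbr2 was at 0.715 and 0.539 CPM in Ctrl, at 6.93, 13.5 and 22.2 at D2, and at 1.99, 14.4, 2.06, 5.06 and 11.3 at D3, in the same order of libraries. It was higher than in Ctrl by 4.41 ± 1.13 at D2 (edgeR adjusted p = 0.00820) and by 4.40 ± 1.15 at D3 (0.00713). At D10 it was back at 1.77, 0.409 and 0 CPM, below every D3 library, a fall from D3 of 3.93 ± 0.96 (0.0244). It was 0.219, 3.13 and 0.232 CPM at D1, and the rise from D1 to D3 was 2.74 ± 0.83 (0.0296).

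Stab1, Mrc1 and Lyve1 passed in none of these microglial comparisons, and Cd163 was not tested. Stab1 was the only marker that uninjured microglia held in quantity, at 115.6 and 147.3 CPM, with a UMI in 33.9% and 40.4% of cells. At D1 it was at 66.7, 66.7 and 83.1 CPM, below both controls, yet the fitted change was -0.06 ± 0.46 (adjusted p = 0.932) in the fit, which scales by TMM and has a term for sex; why the CPM and the fit differ was not tested. It was 38.3 CPM at D21, a change of -0.996 ± 0.638 (0.383), and 69.2 to 274.0 at D3. Mrc1 was at 0.536 and 3.24 CPM in Ctrl, at most 7.40 CPM after injury (D2_mixed 2), and at 0 in D3_resident 1 and D21_mixed 1, with adjusted p of 0.173 or more against Ctrl. Lyve1 was at 0 in both controls and above 0 in 4 of the 15 injured libraries, the highest being 22.2 CPM in D2_mixed 2, which is 3 UMIs in 1 of only 23 microglia. Its D2 change had an adjusted p of 0.0854.

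Beside these counts, the share of all genes tested that was called against Ctrl was 46.6% for D1, 29.7% for D2, 37.6% for D3, 10.3% for D10 and 6.98% for D21, with 18.8% from D1 to D3 and 6.88% from D3 to D10. Of the markers, 3, 4, 4, 3 and 3 of 7 were called against Ctrl in that order of times, all higher, then 3 of 7 higher and 1 of 7 lower. At D1 the markers' share was below that of all genes, so the count is no result about the markers as a group. These comparisons share the 2 Ctrl libraries. Fitted on the mixed libraries alone, which leaves 1 Ctrl library, D1 and D10 had 0 markers called and D3 only Folr2, and the calls of Cbr2 at D2, from D1 to D3 and from D3 to D10 and of Pf4 at D21 were lost. Without Ctrl_mixed 1 the calls of Ms4a7 at D1 and D2, of Cbr2 at D2 and D3, of Pf4 at D10 and D21 and of Folr2 at D21 were lost, without Ctrl_resident 1 that of Cbr2 at D3, and without the cells of clusters 2 and 3, which mix both codes, those of Pf4 and Folr2 at D21 and of Cbr2 from D1 to D3. Leaving out 1 library of the mixed sort or D3_resident 2 also ended Cbr2 calls at D2 (D2_mixed 1), from D1 to D3 (D1_mixed 1, D1_mixed 3, D3_resident 2, D3_mixed 3) and from D3 to D10 (D3_resident 2, D10_mixed 1, D10_mixed 2). With sequencing pool as a term Pf4 and Cbr2 lost their D3 calls and Cbr2 its calls at D2 and from D3 to D10, and for D1 and D21 against Ctrl and for D3 against D1 pool and time cannot be told apart.

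**Figure D3:**
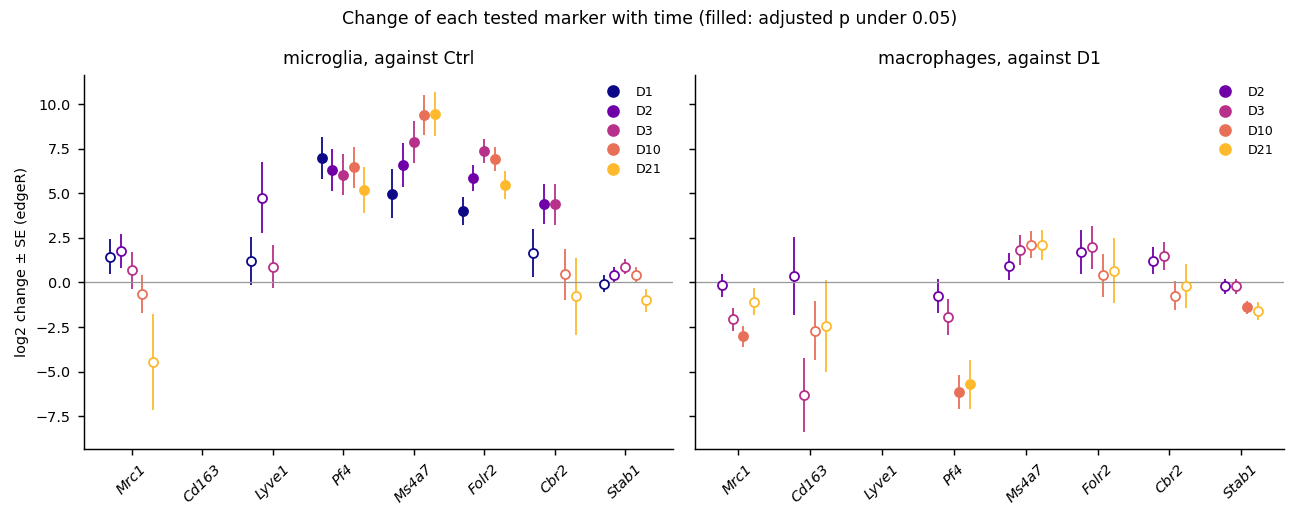
Fitted log2 change with its SE for each tested marker, in microglia against Ctrl (left) and in macrophages against D1 (right); filled points passed an adjusted p of 0.05. In microglia Ms4a7, Folr2 and Pf4 lie between 4.03 and 9.48 at every time, and in macrophages Pf4 (-6.15 and -5.72 at D10 and D21) lies lowest of the called changes.

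The microglia-coded cells that held Ms4a7 were pooled over the libraries of a time and are described without a test. At D1 there were 20 of them, 4 from D1_infiltrating 2: 5% had a UMI of the microglial gene P2ry12 and 0% of Tmem119, another, while 45% had F13a1, a gene of monocytes and border macrophages. Among the 3302 other D1 microglia these shares were 24.2%, 35.4% and 1.57%. At D2, 86 cells held Ms4a7, with P2ry12 in 32.6%, Tmem119 in 54.7% and F13a1 in 8.14%, against 42.3%, 59.3% and 1.53% in the 1964 without. At D3, 151 cells held it, with P2ry12 in 31.8%, Tmem119 in 43.7% and F13a1 in 11.3%, against 39.7%, 43.0% and 1.52% in the 2041 others. The D3 cells with Ms4a7 were deeper (median 2634 against 1866 UMIs), and per UMI both microglial genes were lower in them, P2ry12 at 118.8 against 352.8 CPM and Tmem119 at 221.6 against 323.4. At D10 and D21 together 552 cells held it, with P2ry12 in 26.8%, Tmem119 in 30.8% and F13a1 in 1.09%, against 47.9%, 42.6% and 0.213% in the 3286 without. The low P2ry12 and Tmem119 of D1 rest on 20 cells. Libraries outside the microglial tests gave 13 (D3_infiltrating 1) and 6 (D3_conflict 1) of the D3 cells, and 5, 18 and 24 of the late ones (D10_infiltrating 1 and 2 and D21_infiltrating 1). Late Ms4a7 cells also had more Lyz2, the lysozyme gene, at 6717 against 2392 CPM. The 322 late cells with Folr2 had P2ry12 in 55.6% and F13a1 in 0.311%, against 43.9% and 0.341% without it. Cells with Folr2 were deeper (median 4933 against 2843 UMIs), which raises every share, and per UMI the order of P2ry12 turned, at 266.2 CPM with Folr2 and 406.4 without; for late Ms4a7 cells the medians were 3288 and 2908. The part of macrophages coded as microglia, of doublets and of free RNA in these counts was not tested.

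In macrophages of the infiltrating and mixed libraries the largest change was in Pf4, which was abundant from D1 to D3 and low at D10 and D21; Mrc1 and Stab1 were also lower at D10. The 2 control libraries held 0 macrophages, so D1 was the reference, and 7 of 8 markers were tested, all but Lyve1. Pf4 was at 269.9, 1538, 605.9 and 5914 CPM in D1_infiltrating 1 and 2, D1_mixed 1 and D1_mixed 3. It was at 1209, 489.7 and 1061 in D2_infiltrating 1, D2_mixed 1 and D2_mixed 2, and at 229.2 and 697.4 in D3_infiltrating 1 and D3_mixed 3. It was at 19.6, 38.0, 26.03 and 16.6 in D10_infiltrating 1 and 2 and D10_mixed 1 and 2, and at 16.2 and 35.8 in D21_infiltrating 1 and D21_mixed 1. The late libraries did not overlap any early one. The fitted change from D1 was -6.15 ± 0.95 at D10 (edgeR adjusted p = 0.00193) and -5.72 ± 1.37 at D21 (0.0328). At D2 and D3 it was -0.77 ± 0.96 and -1.94 ± 0.99, with adjusted p of 1.00 and 0.720, and from D3 to D10 it was -4.21 ± 0.96 (0.0650).

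Early Pf4 was uneven between cells. In D1_mixed 3, 5 of 54 macrophages held 93.0% of the Pf4 UMIs, with 882 in 1 cell, while in D1_infiltrating 2 the top 5 of 1885 held 12.2% and 227 cells held 20 or more. Pf4 is also a platelet gene, and Ppbp, its neighbour in platelet granules, moved with it. Ppbp was at 6.80, 57.2, 12.7 and 165.4 CPM in the D1 libraries, in the order above, and at 0, 0, 0 and 1.11 at D10, a change of -7.60 ± 2.00 (adjusted p = 0.0249). The other 8 platelet markers summed to 0 to 14.6 CPM in each of these macrophage sums, and Gp1ba was at 0 in all of them. The part of platelets in the Pf4 change was not tested.

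Mrc1 was at 8.92, 56.3, 46.6 and 65.7 CPM in the D1 libraries and at 33.6, 14.3 and 18.3 at D2. It was at 20.5 and 4.62 at D3 and at 2.48, 6.61, 8.14 and 2.22 at D10, while the D21 libraries had 23.5 and 5.97. Every D10 library was below every D1 library, with a change of -3.03 ± 0.60 (edgeR adjusted p = 0.00686). Single cells carried 2 of the D1 values. In D1_mixed 1 all 11 Mrc1 UMIs came from 1 of 28 macrophages, and in D1_mixed 3 24 of 27 came from 1 of 54. The D3 change of -2.06 ± 0.63 had an unadjusted edgeR p of 0.00551 and an adjusted p of 0.646. Stab1 was at 143.1, 230.5, 194.9 and 226.2 CPM at D1 and at 128.4, 84.3, 32.5 and 47.7 at D10, without overlap, a change of -1.39 ± 0.38 (0.0265). It was at 80.9 and 38.8 at D21, a change of -1.59 ± 0.50 that did not pass (0.0832).

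Ms4a7 moved the other way without passing. Its D1 libraries had 358.3, 158.7, 288.1 and 14.6 CPM and its D2 libraries 117.0, 559.0 and 585.9. There were 633.8 and 570.0 CPM in the D3 libraries, 1655, 1075, 423.0 and 302.8 in those of D10, and 891.6 and 713.8 in those of D21. D3 and D21 lay above all D1 libraries and D10 overlapped them; the D10 change was 2.13 ± 0.73 (adjusted p = 0.0655; DESeq2 called it). Folr2 was at 0 to 31.1 CPM and Cbr2 at 0 to 18.0 CPM in these 15 sums, and neither passed at any time. Cd163 was at 55.1 CPM in D1_mixed 1, where all 13 of its UMIs came from 1 of 28 cells, and at 19.5 CPM in D1_mixed 3, and at 5.55 CPM or less in the other 13.

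Of all genes, 14.4% were called at D10 and 3.56% at D21 against D1, 0% at D2, 0% at D3, and 0.676% from D3 to D10. Of the 7 markers tested 3, 1, 0, 0 and 0 were called in that order, all lower, so at D10 and D21 the share of the markers was above that of all genes, while the markers were picked by name with earlier results known. Without an adjustment, edgeR gave p under 0.05 for 123 genes and 0 markers at D2, for 611 genes and 2 markers at D3, and for 1326 genes and 3 markers from D3 to D10, where DESeq2 called 0, 0 and 1 marker. The Stab1 call at D10 was lost without D1_infiltrating 2, D10_mixed 1 or D10_mixed 2. The Pf4 call at D21 was lost without D1_infiltrating 2, D2_mixed 2, D21_infiltrating 1 or D21_mixed 1, with pool as a term, on the mixed libraries alone and without clusters 2 and 3. The D10 calls of Pf4 and Mrc1 held in each of 23 alternatives, though pool and time cannot be told apart there. The D1 libraries serve in each of these comparisons but the last.

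Whether the macrophages with the reporter of the resident sort differ from those without was asked within the Cx3cr1CreERT2:R26tdTomato mice, with 4 resident and 7 infiltrating libraries and terms for early or late time and sex. After filtering of low counts 4 markers remained, and edgeR called none of them, with 1 marker at an unadjusted p under 0.05 and 0 called by DESeq2; 0.442% of all genes were called. Mrc1 was at 158.4, 16.9, 62.9 and 12.98 CPM in D2_resident 1, D3_resident 1 and 2 and D10_resident 1, against a lowest of 2.48, a median of 20.5 and a highest of 56.3 in the infiltrating libraries, with a change of 1.07 ± 0.51 (adjusted p = 0.439). Ms4a7 was at 740.9, 622.1, 928.1 and 1805 in the resident libraries and between 117.0 and 1655 in the infiltrating ones (1.05 ± 0.36, adjusted p = 0.252). Pf4 (-0.70 ± 0.68) and Stab1 (-0.07 ± 0.22) had adjusted p of 0.773 and 0.963.

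The rarest markers enter the test only without the filter. Without it 6 of 8 were called higher in the resident sort, beside 3.58% of all genes. Of the 6, Mrc1 and Ms4a7 had also been tested with the filter, at larger changes, and were not called. All genes called went from 38 with the filter to 555 without it, so these calls depend on the filter. The reason was not tested. Folr2 was at 29.0, 2.81, 41.9 and 10.2 CPM in the resident libraries, in the order above, and at 0 to 5.37 in the infiltrating ones. Its change was 2.73 on the log2 scale and stayed called, between 2.40 and 2.99, whichever of the 11 libraries was left out. Cbr2 was at 25.9, 16.9, 23.6 and 0.927 CPM against 0.743 to 5.14, a change of 1.82, which held likewise between 1.64 and 2.14. Both groups overlapped through D3_resident 1 or D10_resident 1. Few cells carried these counts in the highest libraries: in D3_resident 2 the 3 of 79 macrophages picked for a UMI of at least 6 markers held 54.2% of the Folr2 and 63.0% of the Cbr2 UMIs, and in D2_resident 1 the 13 of 185 picked likewise held 67.4% and 61.0%. The calls of Mrc1 (0.94), Cd163 (2.10) and Ms4a7 (0.92) were lost without D2_resident 1, among others, and that of Lyve1 (5.64) turned to -2.13 without it. D2_resident 1 was the only resident library with Lyve1 in macrophages, at 25.2 CPM.

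Over all cells of these sorts, Folr2 was lower in the infiltrating sort, by 3.72 ± 0.32 on the log2 scale (edgeR adjusted p = 0.000945), and was the only 1 of 7 markers called, beside 10.7% of all genes. It was at 2.19 ± 1.42 CPM (SD, n = 7) in the infiltrating and 25.7 ± 16.5 (n = 5) in the resident libraries, and the groups overlapped through Ctrl_resident 1 (1.08 CPM). The resident libraries were mostly microglia and the infiltrating ones mostly other cells, so this contrast carries the difference between cell types; their shares and the expression per cell cannot be told apart in it. The call was lost (adjusted p = 0.108) when D3_conflict 1 was counted as resident.

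**Figure D4:**
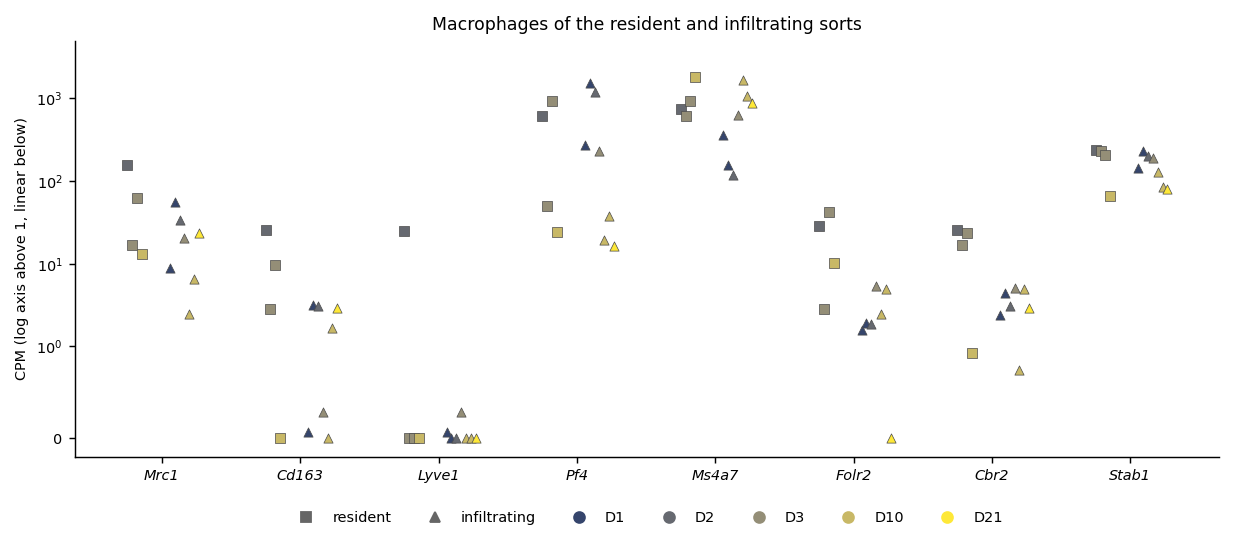
Level of each marker in macrophages of every resident (squares) and infiltrating (triangles) library, coloured by time; the axis is logarithmic above 1 CPM and linear below. The resident libraries reach 41.9 CPM of Folr2 and 25.9 of Cbr2 against at most 5.37 and 5.14 in the infiltrating ones, and Lyve1 stands out in 1 resident library only, at 25.2 CPM.

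Cells that held most of the markers at once were rare and many of them came from 1 library. A UMI of at least 6 of the 8 markers was found in 51 of 30958 cells, of at least 7 in 12 cells and of all 8 in 5. Of the 51, 45 were coded as macrophages and 6 as microglia. D2_resident 1 gave 16 of them, 13 among its 185 macrophages (7.03%, exact 95% interval 3.79 to 11.7) and 3 among its 1500 microglia (0.0413 to 0.583%), and 10 of the 12 cells with 7 or more. D3_resident 2 had 3 among 79 macrophages (3.797%, 0.790 to 10.7), and in libraries with over 400 macrophages the share was between 0 and 0.775%. Ctrl, D10 and D21 libraries had none. A cut on a count is a range and not a cell type: another 128 macrophages and 4 microglia held exactly 5 markers, and deeper cells reach the cut more easily. With cells thinned to 2000 UMIs, 10 cells remained at 6 or more.

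The 16 cells of D2_resident 1 and the 35 of the other libraries shared some genes and differed in others. In D2_resident 1 all 16 had F13a1, 15 had the transcription factor gene Maf, 11 the lectin gene Mgl2 and 11 Lyve1, and 4 had Fn1 and 0 Ccr2, genes of macrophages and monocytes that enter wounds. In the other libraries 29 of 35 had Fn1 and 21 Ccr2, while 1 had Mgl2 and 2 had Lyve1; F13a1 was in 32 of them and Maf in 28. Ccr2 was in 12 of the 14 from infiltrating libraries but in 4 of the 15 from mixed ones. Median Pf4 was 19.5 UMIs in the first set and 64 in the second, at median depths of 4881 and 12162 UMIs, so the low shares of Fn1 and Ccr2 stand at lower depth but those of Mgl2 and Lyve1 in the other libraries do not. The 13 macrophages of this kind in D2_resident 1 held 87.5% of the Lyve1, 75.6% of the Cd163, 67.4% of the Folr2, 61.8% of the Mrc1 and 61.0% of the Cbr2 UMIs of its 185 macrophages, but 6.22% of the Ms4a7. The cells were picked for holding these genes, so large shares follow in part from the choice. D2_resident 1 held 59 of all 91 UMIs of Lyve1 (64.8%). It is 1 library of 1 to 3 mice and there is no other resident library at D2, so whether the day, the mice or the sort goes with these cells cannot be told apart.

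**Figure D5:**
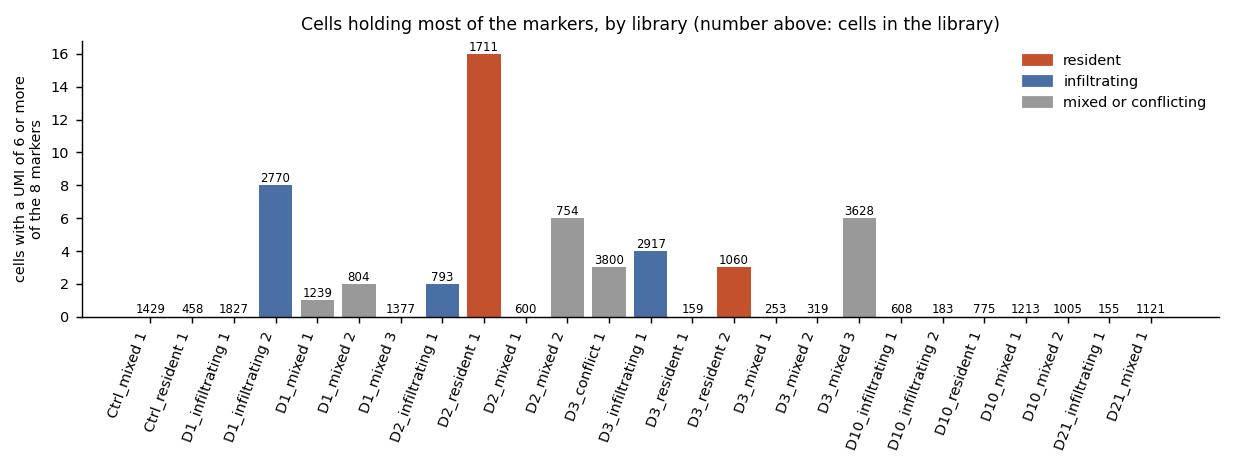
Number of cells with a UMI of 6 or more of the 8 markers in each library (bars, coloured by sort), with the number of cells in the library above the bar. D2_resident 1 has 16 of the 51, and no Ctrl, D10 or D21 library has any.

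Another 24 genes known from border macrophages were read from the same fits; this list was made by name, and 18 of 24 passed the filter in both cell types. In microglia 11 of the 18 were called at D1 (8 higher, 3 lower; median change 1.92, all genes -0.01), 13 at D2 (10 and 3; 1.74 and -0.02), 13 at D3 (10 and 3; 2.77 and -0.04), 4 at D10 and 4 at D21 (all higher; medians 1.60 and 1.24). Of all genes tested 46.6%, 29.7%, 37.6%, 10.3% and 6.98% were called at these times, and nothing particular to the list is read from its counts. Dab2, an endocytic adaptor, was at 8.35 ± 5.74 CPM (SD, n = 2) in Ctrl and 279.8 ± 76.5 (n = 3) at D1, a change of 5.93 ± 0.54 (SE; edgeR adjusted p = 1.99e-06). It fell from D3 to D10 by 1.90 ± 0.35 (0.00489). Apoe, the apolipoprotein E gene, went from 1600 ± 35.2 CPM to 57183 ± 5451 at D10 (5.69 ± 0.54, 4.98e-06), and the scavenger receptor Colec12 from 2.15 ± 1.51 to 75.1 ± 16.1 (5.39 ± 0.53, 5.28e-06). Slc40a1, the iron exporter ferroportin, fell at D1 from 83.9 ± 17.2 to 3.99 ± 1.58 CPM (-4.07 ± 0.49, 1.24e-05). Clec4n was at 0 in both controls and was called at every time, with group means of 0.972 to 6.40 CPM, and Cd38 was called at D1, D2 and D3. Others among the largest rested on few UMIs or on 1 library: Ccl8 at D2 had 33.4 ± 54.4 CPM, Fcna 5.83 ± 7.78, F13a1 12.4 ± 8.85, and Ms4a4a at D1 1.95 ± 2.94. Between injured times, 7 of 18 were called from D1 to D3 (5 higher, among them Siglec1 and Slc40a1; Ccl24 and Ms4a6d lower) and 4 from D3 to D10, where Dab2 and Ms4a6b were lower and Apoe and Colec12 higher; 18.8% and 6.88% of all genes were called there.

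In macrophages 6 of 18 were called at D10 against D1 (2 higher, 4 lower; median -0.36, all genes 0.01), beside 14.4% of all genes. The lectin gene Clec4n fell from 703.2 ± 465.6 CPM (SD, n = 4) to 38.2 ± 37.3 (n = 4), by 4.39 ± 0.70 on the log2 scale (edgeR adjusted p = 0.00234). Dab2, Ccl24 and Ms4a6d were also lower, with changes of -3.68, -9.25 and -1.97, while Apoe rose by 3.52 and Hpgd, a prostaglandin-degrading enzyme, by 2.41. At D21 4 were called, beside 3.56% of all genes: Clec4n and Ms4a6d lower, Apoe and Hpgd higher. Apoe and Colec12 thus rose in microglia and Apoe in macrophages, while Dab2 and Clec4n were called higher in microglia after injury and lower in late macrophages; the references differ, Ctrl and D1, and the difference between the types was not tested. At D2, at D3, from D3 to D10 and between the sorts of macrophages edgeR called 0 of the listed genes (0, 4, 6 and 7 at an unadjusted p under 0.05 in that order; DESeq2 called 0, 0, 2 and 5). Over all cells of the sorts 6 of 18 were called, beside 10.7% of all genes: Mgl2, Clec10a and Ms4a4a higher in the infiltrating sort, by 3.75, 3.26 and 1.46, and Gas6, Colec12 and Slc40a1 lower, by 4.71, 2.45 and 2.41 on the log2 scale.

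Of 9 relatives of the markers (paralogues and family members), few were expressed. Mrc2, the paralogue of Mrc1, was at 9.55 CPM in microglia and 0.0413 CPM in macrophages. It was at 12.6 ± 4.37 CPM (SD, n = 2) in Ctrl microglia, fell to 1.31 ± 1.58 (n = 3) at D1 (-2.57 ± 0.72, edgeR adjusted p = 0.00755) and rose by 3.18 ± 0.65 from D1 to D3 (0.00291), the only call among 4 relatives tested at each, beside 46.6% and 18.8% of all genes. It was lower in all cells of the infiltrating than of the resident sort, with a change of -6.36 ± 0.67 (0.00231), as was the carbonyl reductase Cbr1, while Ms4a4b and Ms4a4c were higher there; these 4 were the called ones of 6 tested, beside 10.7% of all genes. Stab2 and Folr1, the paralogues of Stab1 and Folr2, were too low to be tested in any comparison.

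Likeness in pattern was measured as Pearson's r of log2(CPM + 5) over 54 sums of 1 cell type in 1 library, against 9450 genes at 20 CPM or more in at least 1 sum. The sums share libraries, depth and cell types, so the values describe these sums and carry no p. Ms4a7 was most like Lyz2 (r = 0.91), Ahnak2 (0.88) and Gpnmb (0.87), Stab1 most like Slc7a8 (0.84) and Sept8 (0.83), and Pf4 most like Hmox1 (0.82), Ccl7 (0.80) and Tpi1 (0.79). Folr2 was most like Grn (0.80), Tceal9 (0.76) and Fabp3 (0.75), and Cbr2 most like Creb3l1 (0.71), Ncapg2 (0.66) and Mpp1 (0.65). Mrc1 and Cd163 were in each other's list, with r = 0.71, beside Ttc39c (0.72) and B4galt5 (0.71) for Mrc1 and Fam83g (0.74) and Fosl1 (0.59) for Cd163. Lyve1 gave Map7d2 (0.65), Arfgef3 (0.57) and Chic1 (0.57), from 91 UMIs in all. Among the 28 pairs of markers r ran from -0.05 (Mrc1 and Folr2) to 0.71 (Mrc1 and Cd163); Pf4 and Stab1 had 0.70, and Ms4a7 and Folr2 0.16. Over the 20 macrophage sums alone Ms4a7 went against Pf4 (r = -0.64, against 0.36 over all sums) and Mrc1 (-0.36, against 0.39), while Pf4 and Stab1 had 0.75.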

How the data were processed

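Raw UMI counts per gene and cell in 25 libraries, with cell type and cluster codes, were used as deposited; they were made with Cell Ranger 3.1.0 on GRCm38 (mm10), per the submitters' processing notes. How cells were filtered, clustered and coded by the authors is not given in the sources used here. Doublets were not called and no correction for free RNA was made. Library totals are given with the libraries. The study's design text names 1, 3, 10 and 21 days, and D2 comes from the sample labels. D2_infiltrating 1 is labelled female but has the code of the male libraries in the deposited cell table; the label was used for the sex term, and a fit without that term was an alternative.

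Counts were summed per library and cell type (at least 20 cells). The sums were tested with edgeR 4.0.16 (filterByExpr, TMM, quasi-likelihood; R 4.3.3, limma 3.58.1) with terms for time and sex, Benjamini-Hochberg adjusted over all genes tested, at a threshold of 0.05; the lone D21 library of the microglial fit is assumed to vary like the others. DESeq2 1.42.0 was an alternative, beside other scalings, filters, sequencing pool, sorts and leaving out each library. Cell-type values without D3_conflict 1 or another library were added after seeing the data. Shares were also taken after thinning cells to 2000 UMIs, with exact (Clopper-Pearson) 95% intervals; values used Python 3.11.15, numpy 2.4.6, scipy 1.17.1 and pandas 2.3.3. The fits were tested on simulated data.

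The 8 markers are all named; of the other lists, up to 6 called genes with the largest change per comparison are named, and for likeness the 3 genes of highest r. Some genes are not reported here, so fewer are named in places. Other genes named beside them were chosen after their values were seen. The members and lists were chosen with earlier results of these data known.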

Additional observations from a re-analysis of the deposited data

Results flagged for a closer look

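In 6 of 38 groups of 4 to 10 libraries, 1 library lay far from the others relative to the range of its group; chance flags about 1 in 20 groups. Of these, 4 concern Lyve1, which is at 0 in most libraries. A group at 0 in all but 1 library is flagged whatever the level of that library. The rate for chance does not hold for such groups, and no excess over it is read here. In microglia, D3_resident 2 had 0.482 CPM (1 UMI) and the other 4 D3 libraries 0. In macrophages, D1_infiltrating 1 had 0.0661 CPM where the other D1 libraries had 0, D3_infiltrating 1 had 0.286 CPM where the next infiltrating library had 0.0661, and D2_resident 1 had 25.2 CPM where the other resident libraries had 0. Pf4 in D3 microglia was at 132.0 CPM in D3_mixed 3, against 40.4 CPM in the next library; this library was mostly macrophages (3019, with 521 microglia). Stab1 in resident macrophages was at 66.8 CPM in D10_resident 1, against 209.7 to 236.0 in the other 3.

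In CPM, Stab1 moved in opposite directions from D1 to D10 in the 2 cell types: the log2 ratio of mean CPM + 5 was 0.66 in microglia and -1.38 in macrophages, a difference of 2.04 that was not tested. In microglia Stab1 was called in no comparison, and its lower CPM at D1 did not appear in the fit against Ctrl.

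D3_conflict 1, the library with conflicting labels, was in none of the tests between times and sorts. Over all its cells Pf4 was at 101.4 CPM (0.715 and 2.16 in the Ctrl libraries), Ms4a7 at 301.2 (0 and 0.539) and Cbr2 at 4.50 (0.715 and 0.539). It held 2367 macrophages and 8 microglia among 3800 cells, while the Ctrl libraries held microglia only. These values therefore also carry the difference between cell types.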

How the results depend on the processing

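The 32 called changes of the markers were recomputed under 695 alternatives in all: 634 kept direction and call, 60 kept the direction but not the call, and 1 reversed (Lyve1 between macrophage sorts without the filter, -2.13 without D2_resident 1, up to 6.38 without another library). On the mixed libraries alone the number of markers called was 0 at D1 and D10 and 1 at D3 in microglia against Ctrl, 0 from D3 to D10, and in macrophages 2 at D3, 0 at D21 and 3 from D3 to D10. With sequencing pool as a term it was 2 at D3 and 0 from D3 to D10 in microglia, 0 at D21 in macrophages and 2 over all cells of the sorts. Without clusters 2 and 3 (added after seeing the data) it was 1 at D21 in microglia and 0 at D21 in macrophages. Without the filter or with DESeq2 it was 2 from D3 to D10 in microglia (also without the sex term), 2 at D21 and 1 from D3 to D10 in macrophages (also without the sex term and with D3_conflict 1 as infiltrating). Between macrophage sorts it was 6 without the filter, and 1 with at least 50 cells per sum or with D3_conflict 1 as infiltrating; with it as resident, 0 were called over all cells.

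Leaving out 1 library gave 2 to 3 markers at D1, 2 to 4 at D2, 3 to 5 at D3, 2 to 3 at D10, 1 to 3 at D21, 2 to 4 from D1 to D3 and 0 to 2 from D3 to D10 in microglia. In macrophages it gave 0 to 0 at D2 and D3, 2 to 4 at D10, 0 to 1 at D21 and from D3 to D10, 0 to 2 between sorts (2 to 7 without the filter, added after seeing the data), and 1 to 2 over all cells.

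Replicate numbers did not pair the samples (correlations of deviations -0.198 to 0.122); with a replicate block 0 markers were called from D3 to D10 and 2 from D1 to D3, both without Cbr2. The counts of all genes called moved most for microglia at D1 (5034; 1206 on mixed libraries alone), D2 (3210; 718 without Ctrl_mixed 1), D3 (4064; 255 with pool), D10 (1111; 71 to 2404), D21 (754; 209 to 1118), D1 to D3 (2030; 1004 without D1_mixed 2) and D3 to D10 (743; 0 to 1676), for macrophages at D2 (0; up to 45), D3 (0; up to 860), D10 (1231; 376 without D1_infiltrating 2), D21 (305; 14 to 781) and D3 to D10 (58; 8 to 1064), and for the sorts (38; 0 to 555, and 1077; 0 to 1619 over all cells). Thinning to 1000 or 4000 UMIs moved 21 and 25 of 32 shares beyond their interval. Control counts of 1 to 8 UMIs limit the size of the changes against Ctrl. The cause of these differences was not tested.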
